A study of Mus musculus with 10 samples.

Results

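The genes described here encode the secretory proteins of the mouse seminal vesicle: Svs1, Svs2, Svs3a, Svs3b, Svs4, Svs5, Svs6, Sva and Sval1. The 9 members were selected on measured values, because their levels in an earlier analysis of these data were far lower in prostate epithelium labelled Arid1a KO, and were then matched by symbol. All 9 of 9 symbols were found among the 48897 gene rows of both expression tables. Since both contrasts entered the choice, the levels of the members are given as a description and without a test.

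The study sequenced RNA from 10 mouse samples. In the epithelium experiment, EpCAM+ CD45- cells had been isolated from the prostates of 3-month-old C57BL/6 mice, with 3 control libraries (replicates A to C) and 3 libraries from mice that also carried the Arid1a deletion (Arid1aPC-/-, replicates A to C). PC stands for deletion by probasin-driven Cre, which is active in prostate epithelium. Controls and labelled KO mice share a further deletion made by the same Cre, so the controls are not wild type and no wild-type epithelium was measured. In the cell line experiment, 2 empty-vector libraries (Myc-CaP EV) were set against 2 Myc-CaP Arid1a KO libraries. Myc-CaP is a prostate cancer line from a c-Myc transgenic FVB mouse, and its knockout was made by CRISPR editing. Nothing in the labels ties a library to an animal or a separate culture, and p-values then measure only the spread between these libraries.

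The seminal vesicle is an androgen-dependent gland that develops from the Wolffian duct, whereas the prostate develops from the urogenital sinus, and in the mouse the anterior prostate lies against it. Its epithelium secretes a few proteins in very large amounts. At ejaculation Svs2 and other proteins of this secretion are cross-linked by transglutaminase 4 from the prostate, which hardens them into the copulatory plug. The members also include free proteins of the seminal plasma and relatives of other enzyme and glycoprotein families.

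The depth of the epithelium libraries, recovered from the smallest steps between low RPKM values, was about 28800000 to 36300000 reads. Arid1a itself, taken over the whole gene, was at 27.8, 21.9 and 26.5 RPKM in control A, B and C and at 31.1, 28.8 and 30.8 RPKM in the libraries labelled Arid1a KO. It was thus not lower in those libraries (log2 difference 0.25, adjusted p = 0.054 by limma, and called higher under 6 alternatives), and a value over the whole gene does not show whether a part of it is deleted. They are therefore called labelled KO libraries below. In Myc-CaP, Arid1a was at 60.5 and 61.0 TPM, the length-scaled unit of that table, in EV 1 and 2 and at 39.5 and 40.3 TPM in the labelled KO 1 and 2.

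Of the 9 members, 6 lie together on chromosome 2 within 98.5 kb (mm10, chr2:164235929-164334396), in the order Svs2, Svs3b, Svs4, Svs3a, Svs6 and Svs5. Sval1 and Sva lie within 91.2 kb of each other on chromosome 6 (chr6:41951630-42042851), and Svs1 lies apart on the same chromosome (chr6:48986861-48991722). All are annotated as protein-coding genes in GENCODE M21.

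The upstream sequences are shown for the 4 members of chromosome 2 that form near-identical pairs, because the members of a pair could then be compared at nearly the same proximal promoter. Each line gives the 250 bases before the RefSeq start site (GRCm38.p6), 5′ to 3′ on the strand of the gene. They lie at chr2:164289017-164289266 (plus strand) for Svs3a, chr2:164256644-164256893 (minus strand) for Svs3b, chr2:164332515-164332764 (plus strand) for Svs5 and chr2:164316501-164316750 (plus strand) for Svs6. Capitals mark the core promoter motif TATAAA and the half-site of the androgen response element, which reads TGTTCT or, on the other strand, AGAACA.
Svs3a: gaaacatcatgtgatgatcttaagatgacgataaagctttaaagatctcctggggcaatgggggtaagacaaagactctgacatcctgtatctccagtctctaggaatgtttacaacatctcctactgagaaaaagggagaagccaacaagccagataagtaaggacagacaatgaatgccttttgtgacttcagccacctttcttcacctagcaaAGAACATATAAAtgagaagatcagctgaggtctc
Svs3b: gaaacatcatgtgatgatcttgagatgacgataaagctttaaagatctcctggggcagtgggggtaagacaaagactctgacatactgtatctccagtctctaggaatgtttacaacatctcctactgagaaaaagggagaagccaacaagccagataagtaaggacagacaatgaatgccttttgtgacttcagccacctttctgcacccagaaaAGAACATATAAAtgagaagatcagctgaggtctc
Svs5: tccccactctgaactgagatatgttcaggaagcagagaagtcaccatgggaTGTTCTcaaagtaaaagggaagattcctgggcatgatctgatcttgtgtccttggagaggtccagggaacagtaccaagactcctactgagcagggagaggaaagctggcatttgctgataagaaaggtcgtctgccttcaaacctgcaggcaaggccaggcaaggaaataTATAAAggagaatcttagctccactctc
Svs6: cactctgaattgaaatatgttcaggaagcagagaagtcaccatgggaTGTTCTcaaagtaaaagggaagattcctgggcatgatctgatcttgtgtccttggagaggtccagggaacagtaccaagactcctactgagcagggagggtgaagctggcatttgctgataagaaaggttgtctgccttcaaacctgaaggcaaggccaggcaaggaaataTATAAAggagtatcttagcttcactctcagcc

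The Svs3a and Svs3b upstream sequences were 97.6% identical, and those of Svs5 and Svs6 were 93.3% identical. Sva and Sval1 reached 72.0%, and every other pair of members was between 42.0% and 57.1%. TATAAA, searched on both strands, was present in 6 of the 9 upstream sequences, all on chromosome 2, against 13% of 27025 mouse promoters of the same length. On the strand of the gene, the copy nearest the RefSeq start began at position -28 in Svs3a, Svs3b, Svs4 and Svs5. It began at -32 in Svs6 and at -205 in Svs2. The half-site TGTTCT or AGAACA was present in 7 of 9 (all except Svs2 and Svs4) against 16.2% of promoters. In Svs3a and Svs3b it abutted the TATA box, beginning at -34, whereas in Svs5 and Svs6 it began at -199 and -203. GATAA was present in 7 of 9 against 23% and TGTTTAC, a forkhead motif, in 2 of 9 (Svs3a and Svs3b) against 3.09%. CCAATAAA, a HOXB13 motif, was in 0 of 9 against 1.1%. A full palindromic element, that is AGAACA and TGTTCT spaced by 3 bases, was in 0 of 9 and in 0.0037% of promoters. These matches are descriptions of a 250-base window. Both members of each near-identical pair were counted, so their matches are not independent. Enrichment over the share of promoters was not tested. The start sites of Svs2, Svs4 and Svs5 differed between RefSeq and GENCODE by 125, 152 and 25 bases.

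In control epithelium 3 of the members, Svs5, Svs2 and Svs4, were among the 100 most abundant transcripts in each library. The summed level of all members was 19904, 18447 and 20860.3 RPKM in control A, B and C. This was 4.51%, 3.90% and 4.68% of all RPKM in those libraries. Svs5 ranked 2 among all genes in each control library, Svs2 ranked 3 in each, and Svs4 ranked 7 or 8. The other members ranked from 114 (Svs6 in control A) to 2463 (Sval1 in control A). In the labelled KO libraries the sum was 1574, 623 and 631 RPKM in A, B and C, or 0.393%, 0.156% and 0.156% of all RPKM. The mean sum was 19737 ± 1216 RPKM (SD, n = 3) in controls and 942 ± 547 RPKM (SD, n = 3) in labelled KO libraries, 20.9-fold lower. In bulk RNA, fewer cells of a type and less RNA per cell cannot be told apart.

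All 9 members were lower in every labelled KO library than in every control library, with no overlap. This pattern held for 34.4% of the 16275 genes tested, and since the members were chosen on this contrast nothing is read from their count. The median difference over the members was -5.90 on the log2(RPKM + 1) scale against -0.03 over all genes tested. At an adjusted p under 0.05 (limma with Benjamini-Hochberg adjustment), 29.6% of all genes were lower and 27.5% were higher in the labelled KO libraries. Lower genes made up 51.9% of these calls, but 35.1% after each library was rescaled to the same sum and 41.1% after rescaling without the members. Under the first of these rescalings the median over all genes became 0.11 in place of -0.03, and the median over the members became -5.74.

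**Figure D1:**
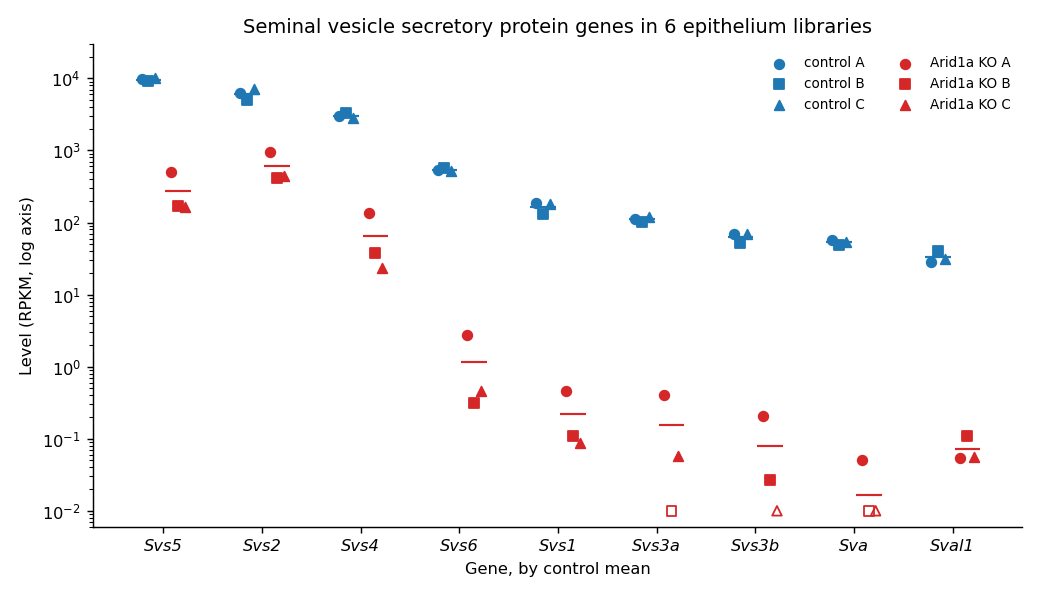
Level of each member in the 6 epithelium libraries, in RPKM on a log axis, with genes ordered by their control mean; points are libraries, short lines are group means, and open symbols at the foot of the axis are values of 0. The control points of each gene lie close together and above all labelled KO points, and Svs5, Svs2 and Svs4 keep higher levels in the labelled KO libraries than the other 6 genes.

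The members fell into those with a clear remaining signal and those with very little left, some of which were close to the detection limit. Svs2, the semenogelin-like main substrate of the copulatory plug, was at 6203, 4981 and 7059 RPKM in control A, B and C. It was at 938, 415 and 444 RPKM in labelled KO A, B and C. The mean of the labelled KO libraries was 9.85% of the control mean, the largest share among the members, and the lowest control was 5.31-fold above the highest labelled KO library.

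Svs5, a small secreted protein of the same cluster, was at 9738, 9186 and 10007 RPKM in control A, B and C. It was at 498, 169 and 163 RPKM in labelled KO A, B and C, a mean of 2.87% of the control mean. Svs5 was the most abundant member in controls and the second in the labelled KO libraries, where Svs2 was above it in all 3.

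Svs4, a small basic secretory protein long used as a marker of androgen action in the seminal vesicle, was at 2979, 3329 and 2830.5 RPKM in control A, B and C. It was at 133, 38.4 and 23.3 RPKM in labelled KO A, B and C, or 2.13% of the control mean. These 3 genes made up 94.8% to 95.4% of the family signal in the control libraries and 99.8% to 99.9% in the labelled KO libraries.

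Svs6, whose upstream sequence nearly matches that of Svs5, was at 530, 576 and 511 RPKM in control A, B and C. It was at 2.72, 0.315 and 0.457 RPKM in labelled KO A, B and C, or 0.216% of the control mean. The ratio of Svs5 to Svs6 was 16.0 to 19.6 in the control libraries and 183 to 537 in the labelled KO libraries. These neighbours with like upstream sequences thus did not keep a constant ratio. Svs6 had an estimated 44.25, 5.03 and 7.04 reads in labelled KO A, B and C, so the ratios in B and C are imprecise. Their transcripts were 54.8% identical and shared no run of 50 bases.

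Svs3a and Svs3b are near copies that encode closely related plug proteins, and they lie in opposite orientation on either side of Svs4. Svs3a was at 113, 100.4 and 119 RPKM in control A, B and C and at 0.410, 0 and 0.0578 RPKM in labelled KO A, B and C. Svs3b was at 69.8, 52.7 and 68.9 RPKM in control A, B and C and at 0.210, 0.0268 and 0 RPKM in labelled KO A, B and C. The means of the labelled KO libraries were 0.141% and 0.124% of the control means. Their transcripts were 88.4% identical, and 41.2% of the 50-base windows of Svs3a occurred in Svs3b, so reads could be split between them and each single value is uncertain. No other pair of members shared a 50-base window.

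Svs1, which belongs to the copper amine oxidase family by sequence, was at 185, 133 and 180.1 RPKM in control A, B and C. It was at 0.461, 0.109 and 0.0875 RPKM in labelled KO A, B and C, or 0.132% of the control mean. An antisense gene, 4930563H07Rik, overlaps Svs1 and was not tested because of its low level.

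Sva, the seminal vesicle autoantigen, is a glycoprotein that binds sperm. It was at 57.9, 48.1 and 53.5 RPKM in control A, B and C and at 0.0505, 0 and 0 RPKM in labelled KO A, B and C. Sval1, its relative in the same region of chromosome 6, was at 28.5, 40.2 and 31.4 RPKM in control A, B and C and at 0.0532, 0.109 and 0.0563 RPKM in labelled KO A, B and C. Their labelled KO means were 0.0316% and 0.218% of the control means.

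The lowest of these values rested on single reads. From the depth and the M21 exon length, the labelled KO values of Svs1, Svs3a, Svs3b, Sva and Sval1 came out as whole reads. Sva had 1, 0 and 0 reads in labelled KO A, B and C, against 3338 reads over the 3 control libraries. The share of control was 0.0327% at equal depth, with a 95% exact interval (Clopper-Pearson) of 0.000827% to 0.182%. Sval1 had 1, 2 and 1 reads (0.216%, interval 0.0588% to 0.554%). Svs3b had 8, 1 and 0 reads (0.128%, interval 0.0586% to 0.244%). Svs3a had 15, 0 and 2 reads (0.144%, interval 0.0841% to 0.231%), and Svs1 had 39, 9 and 7 reads (0.136%, interval 0.102% to 0.177%). The reads were pooled over 3 labelled KO libraries that differed among themselves, and the intervals cover counting error only. At a value of 0, a floor of 3 reads corresponds to 0.0834 to 0.16 RPKM in these genes.

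The order of levels in controls was Svs5, Svs2, Svs4, Svs6, Svs1, Svs3a, Svs3b, Sva and Sval1, compared per length as RPKM. Svs3b and Sva were the only neighbours in this order whose control libraries overlapped. Within the controls, the coefficient of variation ran from 4.34% for Svs5 to 18.2% for Sval1. The 3 most abundant members were also the 3 with the largest shares remaining, at 2.13% to 9.85%, whereas the other 6 lay between 0.0316% and 0.218%.

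The make-up of the family signal differed between the groups. Svs5 contributed 48.9%, 49.8% and 48.0% of the summed RPKM in control A, B and C and 31.6%, 27.2% and 25.8% in labelled KO A, B and C. Svs2 contributed 31.2%, 27.0% and 33.8% in control A, B and C and 59.6%, 66.6% and 70.4% in labelled KO A, B and C. The ratio of Svs5 to Svs2 was 1.42 to 1.84 in controls and 0.366 to 0.531 in labelled KO libraries, with no overlap.

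**Figure D2:**
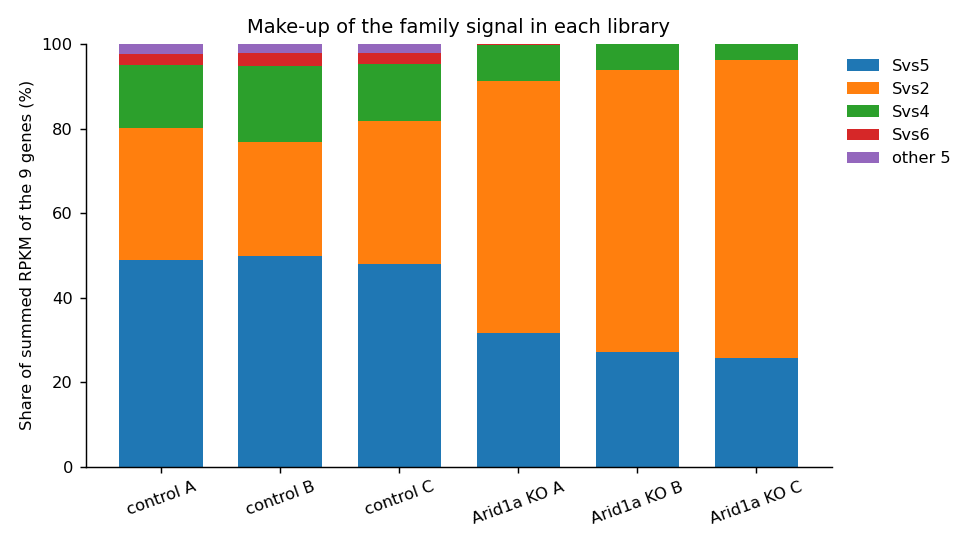
Share of the summed RPKM of the 9 members taken by Svs5, Svs2, Svs4, Svs6 and the other 5 genes, as stacked bars in percent for each epithelium library. Svs5 takes the largest share in the 3 control libraries and Svs2 in the 3 labelled KO libraries, where Svs6 and the other 5 genes together are barely visible.

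The labelled KO libraries were not alike in their remaining signal. Of the 9 members, 8 were highest in labelled KO A, and Sval1, with 1, 2 and 1 reads in A, B and C, was the exception. Sva, counted among the 8, had only 1, 0 and 0 reads, so neither of these 2 genes settles an order. The count also describes a single library. Labelled KO A was 2.19-fold above the mean of B and C for Svs2, 3.00-fold for Svs5, 4.33-fold for Svs4 and 7.04-fold for Svs6. Over all genes tested, 24.9% were highest in labelled KO A. Without this library the labelled KO mean was 7.06% of the control mean for Svs2, 1.72% for Svs5, 1.01% for Svs4, 0.0716% for Svs6 and 0.0591% for Svs1. It was 0.0261% for Svs3a, 0.0210% for Svs3b, 0% for Sva and 0.247% for Sval1.

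Genes known from the seminal vesicle outside the family moved with it. Of 8 such genes listed, 6 had a row and 4 passed the filter on low values, and all 4 were lower in the labelled KO libraries (adjusted p under 0.05 by limma, against 29.6% of all genes). The median of the 4 was -5.52 on the log2(RPKM + 1) scale. These lists, like the members, were drawn up with earlier results of these data known, so their counts are no independent support.

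Pate4, a small secreted protein also called Svs7 or caltrin, was at 1008, 1106 and 1203 RPKM in control A, B and C. It was at 58.0, 24.7 and 22.4 RPKM in labelled KO A, B and C (log2 difference -5.07 ± 0.32 SE, adjusted p = 3.05e-05 by limma). Ceacam10, a secreted carcinoembryonic antigen relative, was at 229.6, 164 and 199 RPKM in control A, B and C and at 3.05, 1.54 and 2.04 RPKM in labelled KO A, B and C (-5.96 ± 0.18 SE, adjusted p = 2.26e-06 by limma). Neither overlapped between the groups.

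Spinkl, a Kazal-type protease inhibitor relative, was at 111, 95.2 and 111 RPKM in control A, B and C and at 1.29, 0.106 and 0.109 RPKM in labelled KO A, B and C (-6.24 ± 0.27 SE, adjusted p = 7.4e-06 by limma). Pax2, a transcription factor of Wolffian duct derivatives, was low throughout, at 1.21, 0.634 and 1.02 RPKM in control A, B and C and at 0.157, 0.0219 and 0.0754 RPKM in labelled KO A, B and C (-0.84 ± 0.13 SE, adjusted p = 0.00134 by limma). Sval2 and Sval3, the other relatives of Sva, reached at most 0.253 RPKM and were not tested. All 4 tested genes of this list were highest in labelled KO A, as most of the members were, and the part of seminal vesicle cells in the level of the members was not tested.

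Secretory genes of the prostate were lower too, but with another order of the labelled KO libraries. All 7 listed genes were tested and all 7 were lower (median -4.98), against 29.6% of all genes. Pbsn, encoding probasin, an androgen-regulated protein, a probasin promoter also being the driver of the Cre used here, was at 160, 203 and 198 RPKM in control A, B and C and at 3.07, 4.29 and 8.66 RPKM in labelled KO A, B and C (-4.98 ± 0.29 SE, adjusted p = 2.11e-05 by limma). Sbp, encoding a spermine-binding protein of the ventral prostate, was at 218, 159 and 217 RPKM in control A, B and C and at 0.0392, 0.960 and 3.89 RPKM in labelled KO A, B and C (-6.52 ± 0.49 SE, adjusted p = 5.88e-05 by limma). In this list 0 of 7 genes were highest in labelled KO A and 5 of 7 were lowest there, against 8 of 9 members that were highest there and 41.2% of all genes that were lowest there.

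The other 5 prostate genes were Sbpl (-5.05), Defb50 (-5.36), Msmb (-3.73), Apof (-2.21) and Azgp1 (-2.02), which encode a relative of Sbp, a defensin, microseminoprotein, an apolipoprotein and a zinc-binding glycoprotein. Their labelled KO means ranged from 1.24% of the control mean for Sbpl to 17.4% for Apof. Msmb and Defb50 were lowest in labelled KO B, and the other 5 genes of the list were lowest in labelled KO A.

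**Figure D3:**
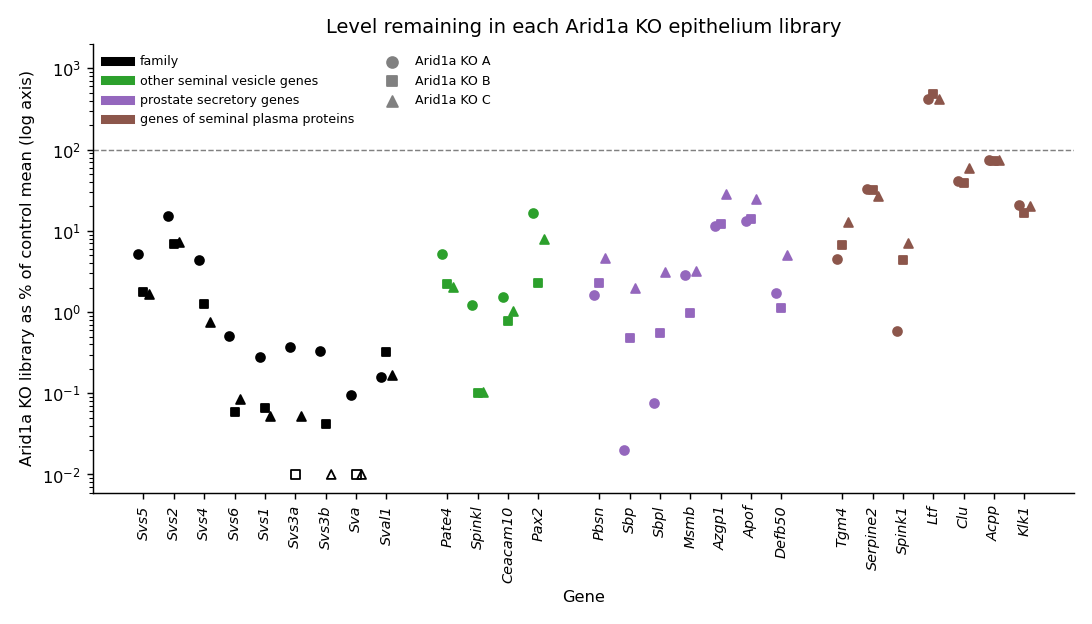
Level of each gene in labelled KO A, B and C as a percent of its control mean (log axis), for the 9 members and the tested genes of 3 lists; the dashed line is the control mean and open symbols at the foot are values of 0. The members span 0% to 15.4%. Labelled KO A is the highest point for 8 of the 9 members and for all 4 other seminal vesicle genes. For the prostate secretory genes, labelled KO A is the highest in 0 of 7, against 24.9% of all genes tested.

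Of 9 listed genes of proteins that act on or with the seminal vesicle secretion, 7 were tested, and 6 were lower and 1 higher, against 29.6% and 27.5% of all genes. The call for Acpp (-0.31), one of the 6, was lost under 7 alternatives (adjusted p of up to 0.178 by limma), among them leaving out control A or any 1 labelled KO library. Tgm4, the transglutaminase that cross-links the plug, was at 153, 166 and 194 RPKM in control A, B and C and at 7.67, 11.6 and 22.0 RPKM in labelled KO A, B and C (-3.66 ± 0.31 SE, adjusted p = 9.58e-05 by limma). Spink1, a trypsin inhibitor of the seminal plasma, was at 240.4, 217 and 215 RPKM in control A, B and C and at 1.32, 9.86 and 16.0 RPKM in labelled KO A, B and C (-4.90 ± 0.64 SE, adjusted p = 0.000577 by limma). The enzyme and its substrate Svs2 were thus both lower, with Tgm4 lowest and Svs2 highest in labelled KO A.

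The other lower genes were Serpine2, a serine protease inhibitor (-1.68), Klk1, a kallikrein (-1.78), Clu, encoding clusterin (-1.13), and Acpp, the prostatic acid phosphatase gene (-0.31, adjusted p = 0.0232 by limma). The call for Acpp was lost under 7 of the alternatives, with an adjusted p of up to 0.178, among them leaving out control A or any 1 of the labelled KO libraries. Ltf, encoding lactoferrin, rose from 82.4, 104 and 82.9 RPKM in control A, B and C to 381, 439.6 and 382 RPKM in labelled KO A, B and C (2.15 ± 0.11 SE, adjusted p = 1.46e-05 by limma). Eppin and Serpina5 were below the filter.

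Because seminal vesicle secretion depends on androgens, 6 genes of androgen action in the prostate were read from the same fit, and 4 were lower and 0 higher (median -0.51), against 29.6% and 27.5% of all genes. Hoxb13 (-1.83), a homeobox factor of the prostate, was at 60.3, 71.7 and 63.7 RPKM in control A, B and C and at 14.9, 14.7 and 24.9 RPKM in labelled KO A, B and C. Zbtb16 (-0.68), an androgen-induced zinc finger factor, Srd5a2 (-0.77), a steroid 5-alpha reductase, and the pioneer factor Foxa1 (-0.34) were also lower. The call for Foxa1 was lost under both rescalings (adjusted p of up to 0.167 by limma) and that for Srd5a2 under 5 alternatives (up to 0.06), among them leaving out control A, control C, labelled KO A or labelled KO B. The androgen-induced genes Fkbp5 (0.14, adjusted p = 0.138 by limma) and Tmprss2 (-0.30, adjusted p = 0.219 by limma) did not pass the threshold. Fkbp5 was called higher under both rescalings, and Tmprss2 was called lower without labelled KO C (-0.52, adjusted p = 0.0108 by limma).

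The genes around the members did not fall as a group. Of 52 genes with a row within 250 kb of a member, 27 were tested, and 9 (33.3%) were lower and 6 (22.2%) higher, close to the 29.6% and 27.5% of all genes. Their median was -0.05, against -5.90 for the members. On chromosome 2, 15 neighbours were tested, with 5 lower and 4 higher.

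Wfdc15b, a whey acidic protein gene 14.3 kb from Svs2, stood apart among the neighbours. It was at 34.8, 43.7 and 39.3 RPKM in control A, B and C and at 5.12, 1.59 and 2.06 RPKM in labelled KO A, B and C (-3.46 ± 0.29 SE, adjusted p = 8.97e-05 by limma). Wfdc12, further out, was lower by less (-1.36, adjusted p = 0.00043 by limma). At the other end of the cluster, Slpi, a secretory leukocyte protease inhibitor gene 19.7 kb from Svs5, was at 44.9, 51.0 and 42.7 RPKM in control A, B and C and at 58.5, 76.4 and 60.2 RPKM in labelled KO A, B and C (0.48 ± 0.12 SE, adjusted p = 0.00962 by limma). The genes next to the cluster thus differed in direction.

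Further out on chromosome 2, Matn4 (-0.94), Wfdc2 (-0.87) and Pigt (-0.43) were lower, Stk4 (0.59), Spint3 (0.83) and Ywhab (0.17) were higher, and Pabpc1l, Tomm34, Mir7678, Sdc4, Sys1 and Dbndd2 did not pass the threshold. The call for Ywhab was lost under 9 alternatives, among them leaving out any 1 library. Sdc4 was called higher under 4 alternatives, Mir7678 under 2 and Tomm34 under 1, whereas Sys1 was called lower under 3 and Dbndd2 under 1. On chromosome 6, Gstk1 (-1.78) and Tmem139 (-0.76) near Sva and Tmem176b (-0.84) and Tmem176a (-0.62) near Svs1 were lower. Gpnmb (1.45), 44.8 kb from Svs1, and Igf2bp3 (0.53) were higher, and Casp2, Gimap1, Gimap5, Gimap3, Malsu1 and Gm7890 did not pass the threshold. Gimap3 was called higher and Malsu1 lower under 1 alternative each.

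**Figure D4:**
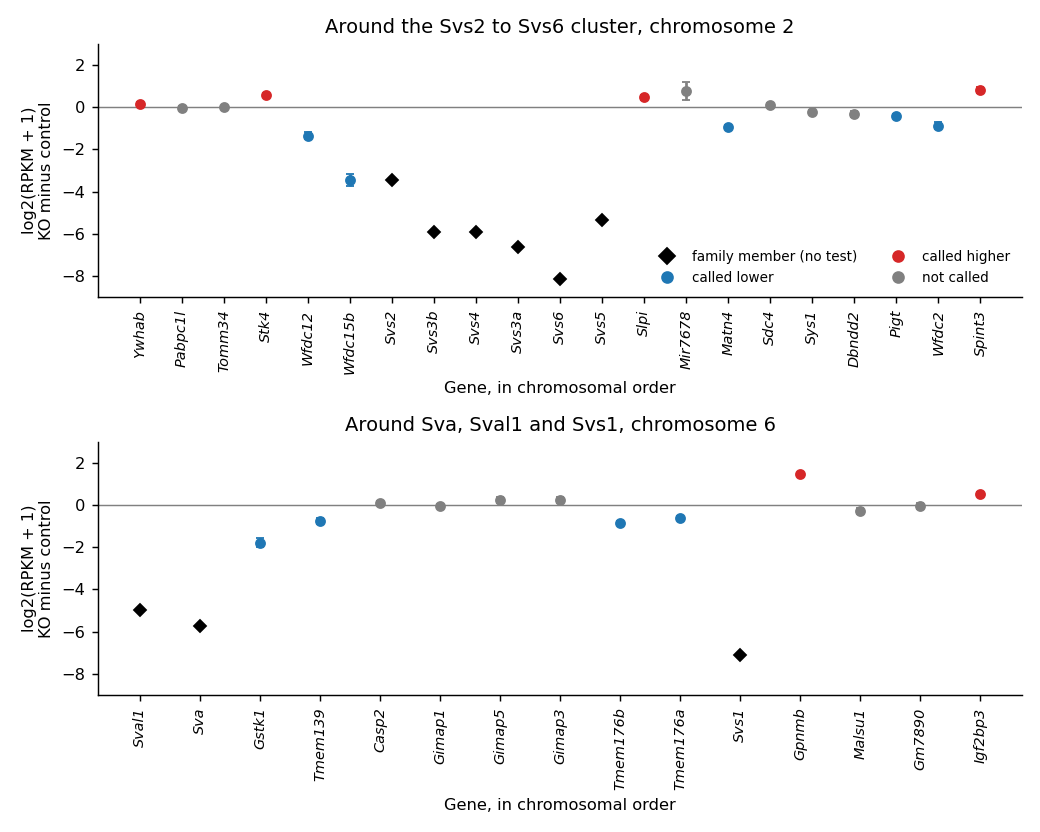
Difference between labelled KO and control libraries on the log2(RPKM + 1) scale for members (black diamonds) and tested genes within 250 kb (circles with standard errors; blue called lower, red called higher, grey not called), in chromosomal order. The 6 clustered members lie between -3.43 and -8.13, and among their neighbours Wfdc15b (-3.46) reaches that range while Slpi on the other side lies at 0.48.

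The genes with the profile nearest to the mean profile of the members over the 6 epithelium libraries were ranked by root-mean-square distance of the centred log2(RPKM + 1) values. Since this choice fixes their direction, no result is read from it. Ceacam10, Spinkl, Pate4, Sbpl and Pbsn are also on the lists above and were tested there as listed genes. Ceacam10 (0.17), 9530003J23Rik (0.18) and Spinkl (0.19) lay nearest, closer than any single member (0.21 for Svs3b to 1.25 for Svs2). Pate4 (0.45), Tff3 (0.55), Gm15772 (0.62), Defb42 (0.64), A630095E13Rik (0.67), Sbpl (0.76) and Pbsn (0.77) followed.

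Of these, 9530003J23Rik was at 70.8, 60.9 and 69.1 RPKM in control A, B and C and at 0.674, 0.275 and 0.171 RPKM in labelled KO A, B and C. Tff3, a trefoil factor of mucosal secretions, was at 391, 582 and 409.8 RPKM in control A, B and C and at 4.73, 5.94 and 9.55 RPKM in labelled KO A, B and C. Defb42, a beta-defensin gene, was at 45.9, 53.3 and 55.3 RPKM in control A, B and C and at 1.82, 0.875 and 0.735 RPKM in labelled KO A, B and C. In 9530003J23Rik and Defb42 labelled KO A was the highest, as in most of the members, and in Tff3 it was the lowest. A630095E13Rik fell to 3.11% of its control mean, and Gm15772, a processed pseudogene that can share reads with its parent gene, to 1.93%.

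**Figure D5:**
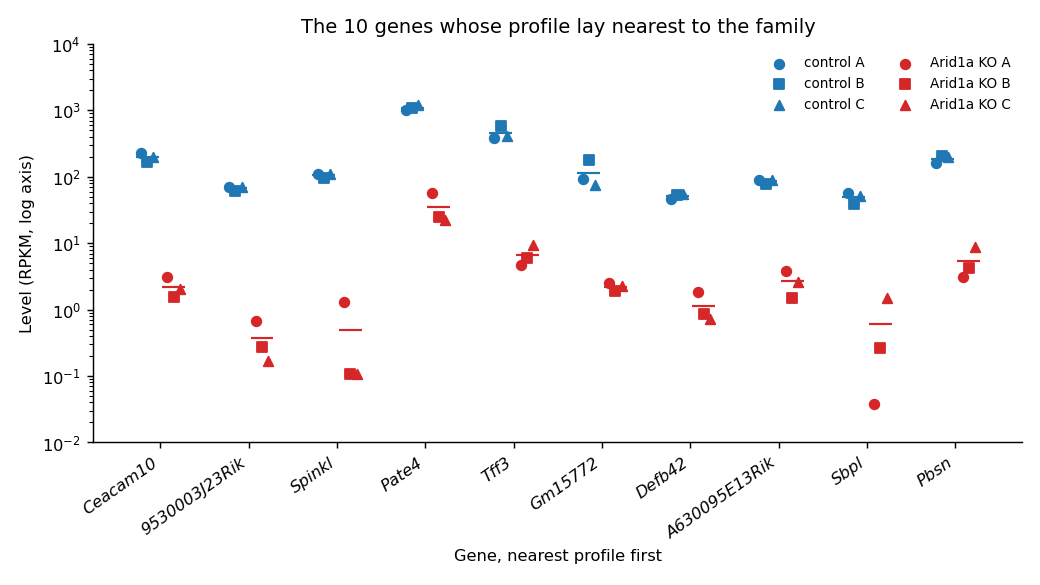
Level in RPKM (log axis) of the 10 genes outside the family with the nearest profiles, in the 3 control and 3 labelled KO libraries; points are libraries and short lines are group means. All 10 lie lower in every labelled KO library than in every control library, as do 34.4% of all genes tested. Nothing is read from this, because the genes were chosen for their likeness to the members. Ceacam10, 9530003J23Rik and Spinkl are nearest to the mean profile of the members.

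Some markers of other cells differed between the groups as well. Of 7 leukocyte markers, 7 were higher in the labelled KO libraries (against 27.5% of all genes), with a summed level of 906 to 983 RPKM in controls and 2044 to 2419 RPKM in labelled KO libraries, although the cells had been gated CD45-. Ptprc, the CD45 gene, was at 30.3, 26.0 and 29.5 RPKM in control A, B and C and at 56.2, 58.1 and 57.6 RPKM in labelled KO A, B and C. Of 7 epithelial markers, 2 were lower (Epcam and Krt18) and 2 higher, against 29.6% and 27.5% of all genes. Epcam was at 279, 351 and 281 RPKM in control A, B and C and at 183, 194 and 225 RPKM in labelled KO A, B and C (-0.59 ± 0.12 SE, adjusted p = 0.00409 by limma), whereas the basal keratin genes Krt5 (1.34) and Krt14 (2.45) were higher. The call for Krt18 (-0.37) was lost under quantile normalization and under rescaling to the same sum (adjusted p of up to 0.111 by limma). Trp63, the basal transcription factor p63, did not pass the threshold (-0.24, adjusted p = 0.0962 by limma), and it was called lower without labelled KO C (-0.35, adjusted p = 0.0159 by limma).

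Of 6 epididymis markers, Lcn5 and Cst11 were at 0 in all 6 libraries and 1 was tested. Crisp1, a sperm-coating protein gene, was at 6.49, 3.41 and 5.81 RPKM in control A, B and C and at 0.249, 0.162 and 0.0478 RPKM in labelled KO A, B and C (-2.40 ± 0.19 SE, adjusted p = 7.78e-05 by limma). The list summed to 3.48 to 6.65 RPKM in controls and 0.0478 to 0.288 RPKM in labelled KO libraries. Crisp1 made up most of this sum in every library, so the sum describes 1 gene rather than the list. Of 4 urothelium markers 3 were lower and 1 higher (sums 102 to 131 and 69.7 to 116 RPKM). Of 6 stroma markers 2 were lower and 2 higher (1246 to 1749 and 1374 to 1889 RPKM). Of 3 endothelium markers 1 was higher (20.5 to 28.8 and 31.5 to 37.4 RPKM). Over all genes 29.6% were lower and 27.5% higher, and nothing is read from these small counts. The calls for Vim, Upk1a and Upk3a were lost under 6, 11 and 3 alternatives. The part of any of these cell types in the fall of the members was not tested.

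In Myc-CaP cells the members were essentially undetected in either group. Of the 9 members, 7 were at 0 TPM in all 4 libraries. Svs1 was at 0.0410 TPM in EV 1, the value of 1 read, and at 0 TPM in the other 3 libraries. Svs4 was at 0.210 TPM in labelled KO 1, about the value of 1 read, and at 0 TPM in the other 3 libraries. A floor of 3 reads corresponds to 0.131 to 0.738 TPM over the values at 0, so no comparison of the groups was possible and none of the 9 passed the filter on low values.

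Epithelial markers were near 0 in the EV libraries of the line. Epcam was at 0 TPM in EV 1, EV 2 and labelled KO 1 and at 0.128 TPM in labelled KO 2, and Krt8 rose from 1.07 and 0.790 TPM in EV 1 and 2 to 40.3 and 38.8 TPM in labelled KO 1 and 2 (4.40, adjusted p = 0.00135 by limma). Over all 13974 genes tested in this table, 1.89% were lower and 4.54% higher in the labelled KO libraries.

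Of the 30 listed genes, 8 were tested in Myc-CaP, with 0 lower and 1 higher, against 1.89% and 4.54% of all genes. This was Apof, which was at 2.48 and 1.68 TPM in EV 1 and 2 and at 25.3 and 25.2 TPM in labelled KO 1 and 2 (3.10, adjusted p = 0.0022 by limma). The call was lost without labelled KO 1 (adjusted p = 0.0539 by limma). Of the other seminal vesicle genes, Spinkl, Sval2 and Sval3 were at 0 TPM in all 4 libraries and Ceacam10 was at 0.734 and 0.596 TPM in EV 1 and 2 and 0.557 and 0.605 TPM in labelled KO 1 and 2. Pbsn, Sbp, Sbpl, Msmb, Azgp1 and Defb50 were at 0 TPM throughout. Tgm4 was at 6.15 and 7.03 TPM in EV 1 and 2 and at 8.18 and 7.40 TPM in labelled KO 1 and 2 (0.21, adjusted p = 0.385 by limma).

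Wfdc12, 45.3 kb from Svs2, was at 759 and 674 TPM in EV 1 and 2 and at 806 and 712 TPM in labelled KO 1 and 2, so a gene beside the cluster was abundant in cells in which the cluster itself was at the detection limit. The groups overlapped (0.08, adjusted p = 0.674 by limma). Of the 52 neighbours 21 were tested in Myc-CaP. Of these, 0 were lower and 5 (23.8%) higher (Sdc4, Gpnmb, Tmem176a, Tmem176b and Wfdc6a), against 1.89% and 4.54% of all genes. Without any 1 of the 4 libraries the calls for Sdc4, Gpnmb and Wfdc6a were lost, and so were those for Tmem176a without EV 1 or either labelled KO library and for Tmem176b without either labelled KO library.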

How the data were processed

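RNA from 6 prostate epithelium samples and 4 Myc-CaP samples had been sequenced by the authors. The deposited epithelium table held RPKM values (reads per kilobase of gene, scaled to sequencing depth) and the deposited Myc-CaP table held TPM values, both computed by the authors, so counts were not at hand. The study's methods name TopHat2 on GRCm38/mm10 with strand-specific HTSeq counting of best matches, whereas the submitters' processing notes name HISAT2, HTSeq and DESeq2. The gene lengths behind the RPKM and TPM values are not given in the sources used here.

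Levels were compared within each table. A gene entered the test when its mean reached 0.5. The test was run on log2(value + 1) with limma 3.58.1 (trended eBayes, two-sided) under R 4.3.3, with Benjamini-Hochberg adjustment over 16275 epithelium genes and 13974 Myc-CaP genes. The pseudocount of 1 understates the change of low genes. The fit was also run on simulated data with independent noise and few changed genes. More genes were called in both tables here, so that run does not measure the error of these calls. For depth, the value of 1 read per library was taken from the common step between low values, with which 28.3% to 33.2% of low values were whole multiples (tolerance 0.05), and reads of a member were computed with its GENCODE M21 exon length. Annotation positions are those of M21 (mm10), and upstream sequences come from RefSeq (GRCm38.p6), in which all 9 members matched by symbol. Same-lettered epithelium libraries did not deviate together, so letters were not used as pairs.

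Named were all members, 4 gene lists, every tested gene within 250 kb, the 10 genes with the nearest profile and Arid1a. Some items of the lists and the genotype are not reported here and were left out of every count over the lists. Members and lists were chosen with earlier results of these data known. The alternatives were another pseudocount, other filters, an untrended fit, rescaling, quantile normalization, a replicate block and leaving out each library.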

Additional observations from a re-analysis of the deposited data

Results flagged for a closer look

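Some listed or neighbouring genes were lower in every labelled KO epithelium library than in every control, and higher in both labelled KO Myc-CaP libraries than in both EV libraries. The difference between the 2 systems was not tested, since the tables have different units. The log2 differences were -2.21 in epithelium and 3.10 in Myc-CaP for Apof, -0.84 and 1.19 for Tmem176b, and -0.62 and 1.09 for Tmem176a, all past an adjusted p of 0.05 by limma in both tables. They were -3.66 and 0.21 for Tgm4, -1.13 and 0.18 for Clu, -1.83 and 0.41 for Hoxb13, and -0.87 and 0.81 for Wfdc2, which passed the threshold in epithelium but not in Myc-CaP. With a replicate block, Hoxb13 was called higher in Myc-CaP (adjusted p = 0.00453 by limma). In Myc-CaP the call for Apof was lost without labelled KO 1, that for Tmem176b without either labelled KO library and that for Tmem176a without EV 1 or either labelled KO library. The members could not be compared in this way, being at 0 TPM or at about 1 read in Myc-CaP.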

How the results depend on the processing

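The median difference of the members was -5.90 on the log2(RPKM + 1) scale. It was -8.65 with a pseudocount of 0.1, which by construction widens differences at low values, and -4.39 as the log2 ratio of the summed RPKM, in which Svs2, Svs4 and Svs5 make up 94.8% to 99.9%. Leaving out each library in turn gave -5.99 to -5.72, and rescaling moved it by less than the spread between the labelled KO libraries. In Myc-CaP the summed TPM of the members differed by 0.0847, and by -0.0205 to 0.19 without 1 library, all within the value of about 1 read. The number of genes past the threshold in epithelium was 9294 and fell to 5872 with a minimum mean of 5, where fewer genes were tested, and it was 7768 to 8819 without 1 library. In Myc-CaP it was 899, and 358 with no filter on low values, 451 by eBayes without a trend, and 47 to 76 without 1 library, where the lone library of a group was assumed to vary like the other group. With a replicate block it was 2771 in Myc-CaP (8823 in epithelium). The numbers pair no samples in the labels, and the correlation of same-numbered Myc-CaP libraries was 0.195. Of the 24 listed genes tested in epithelium, 21 were lower (against 29.6% of all genes), and 18 to 21 without 1 library. Of the 27 neighbours tested in epithelium, 9 (33.3%) were lower, and 9 to 11 without 1 library. Among 85 listed, neighbouring, alike or marker genes tested in epithelium, 22 had a call that changed under at least 1 alternative, as had 11 of 31 in Myc-CaP. None of them reversed. In Myc-CaP the call for Arid1a was lost without any 1 of the 4 libraries, and that for Apof without labelled KO 1 (adjusted p = 0.0539 by limma). Depth limits the remaining shares of Sva, Sval1 and Svs3b, which rest on 1, 4 and 9 reads.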
